A study of Bos taurus with 11 samples.

Results

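Genes of the endoplasmic reticulum (ER) stress response and its chaperones were followed in the endometrium, the inner lining of the uterus, of dairy cows early in lactation. Of 10 genes chosen by name, 8 were represented on the array: HSPA5, HSP90B1, CALR, PDIA4, HERPUD1, ATF4, DDIT3 and TRIB3. XBP1 and ATF6 had no probe set under those symbols in the platform annotation and were not analysed here. The 8 genes stand among 9155 genes that could be named from probe sets with a single symbol. Where a gene had several probe sets, the brightest on average over the 11 arrays stands for it. HSPA5 and PDIA4 had 3 probe sets each and the other members 1 each.

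Tissue came from 11 multiparous Holstein-Friesian cows with a mean of 4.7 lactations, slaughtered 14 ± 0.4 days after calving, and 1 Affymetrix bovine array was run per cow. The severe negative energy balance group (6 cows) was given 25 kg of silage and 4 kg of concentrate daily from day 2 after calving, with 3 milkings a day. The mild group (5 cows) had free access to grass silage, 8 kg of concentrate and 1 milking a day. For both groups the labels also give 21% crude protein and a previous yield of 6477 ± 354 kg. Negative energy balance means that the energy leaving in milk and maintenance exceeds the energy eaten. Values are log2 signals made by the authors with RMA, so 1 unit is a doubling, and all arrays had a median of 6.20. Correlations between arrays ran from 0.948 to 0.991 over all probe sets. EPCAM, an epithelial adhesion protein, averaged 10.33 ± 0.84 in severe cows, against 10.34 ± 0.50 in mild cows. The stromal proteoglycan DCN averaged 13.60 ± 0.17 and 13.44 ± 0.28 (SD, n = 6 and 5), so both compartments of the endometrium were represented. Smooth muscle transcripts were present too, the mean level of 6 markers running from 11.65 to 12.83 in severe and from 11.93 to 13.03 in mild cows.

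Proteins bound for the cell surface or for secretion fold inside the ER, helped by chaperones and by enzymes that form disulfide bonds. When unfolded proteins accumulate, sensors in the ER membrane set off the unfolded protein response. EIF2AK3 (PERK) slows translation and favours translation of the transcription factor ATF4, while ERN1 (IRE1) splices XBP1 mRNA and ATF6 is released by proteolysis. ATF6 and XBP1 raise chaperones and the machinery that sends misfolded proteins to the proteasome. ATF4 raises DDIT3 (CHOP) and TRIB3, which are linked to cell death when stress persists. ATF4 is also switched on by amino acid shortage through EIF2AK4, a separate kinase.

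The comparison asks whether members of this response differed between cows in severe and in mild negative energy balance. The difference was positive in 6 of the 8 members, and the share of all genes with a difference above 0 was 48.9%. The median log2 difference of the members was 0.26, against -0.00378 over all 9155 genes. ATF4, DDIT3 and TRIB3 lay between 0.32 and 0.35, HERPUD1 was at 0.61, and the 4 chaperones and folding enzymes ran from -0.24 to 0.20. By limma, 0 of 8 members had an adjusted p under 0.05, and the background was 0% of 9155 genes. At an unadjusted p under 0.05 there were 3 members, ATF4, HERPUD1 and TRIB3, all higher in severe cows, where 8.45% of all genes were called in that direction. No member was lower at that threshold, where 7.46% of all genes were called. In either direction it was reached by 15.9% of genes. All measured markers of 4 immune lists were higher on average in severe cows. They were 9 of B and plasma cells, 7 of neutrophils, 8 of macrophages and 13 of T and NK cells. In whole tissue more cells of a type and more RNA per cell cannot be told apart. TRIB3 alone reached an unadjusted p under 0.05 with array weights. The same held without mild 2 and severe 5. These cows lay apart in the members themselves, with median deviations from the member means of -0.33 and 0.27.

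**Figure D1:**
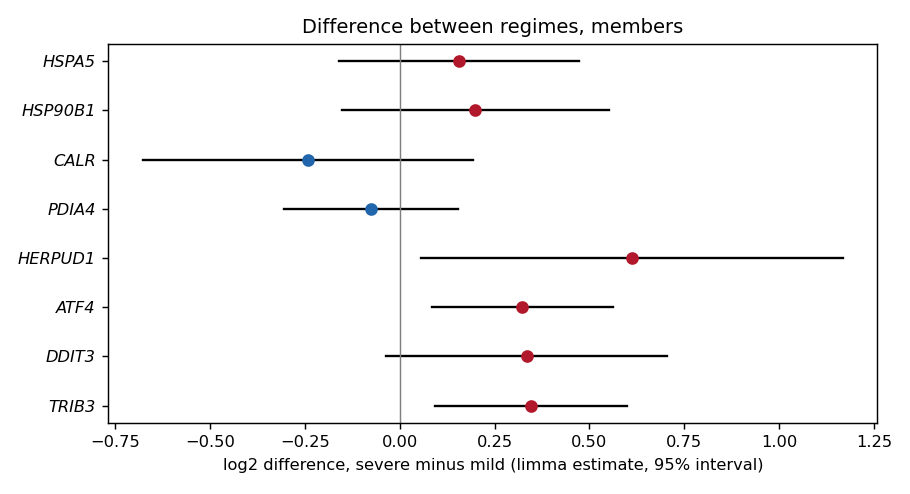
Log2 difference of severe minus mild cows for each member (points, x axis) with the 95% interval from limma (lines), n = 6 and 5. The intervals of HERPUD1, ATF4 and TRIB3 lie above 0 and the other 5 include 0, before any adjustment for the number of probe sets.

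HSPA5 (BiP, GRP78) is the main HSP70-type chaperone of the ER lumen and holds the stress sensors inactive. It ran from 11.78 through a median of 11.98 to 12.31 in severe cows, against 12.231, 11.606, 12.001, 11.960 and 11.526 in mild 1 to 5. The groups overlapped over most of their range, with severe 5 and severe 6 the highest cows and mild 2 and mild 5 the lowest. HSPA5 averaged 12.02 ± 0.22 in severe and 11.86 ± 0.29 in mild cows (SD, n = 6 and 5). The difference was 1.11-fold with a 95% interval from 0.895-fold to 1.39-fold, and limma gave an adjusted p of 0.677. A second bright HSPA5 probe set gave a log2 difference of 0.03 ± 0.18 (SE) and followed the first over cows with a Pearson r of 0.91 (n = 11, a description). The remaining HSPA5 probe set averaged 3.29, near the floor of the array, and was not read. With each cow left out in turn, the log2 difference of the main HSPA5 probe set ran from 0.07 (mild 5 left out) to 0.25 (mild 1 left out).

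HSP90B1 (GRP94), the HSP90 of the ER, chaperones integrins, Toll-like receptors and other client proteins. It ran from 11.72 through 12.01 to 12.41 in severe cows, against 12.01, 11.77, 12.11, 11.93 and 11.38 in mild cows. As for HSPA5, severe 5 and severe 6 stood highest and mild 5 lowest, with the other cows of both groups interleaved. The means were 12.04 ± 0.29 in severe and 11.84 ± 0.29 in mild cows, a 1.15-fold difference with a 95% interval from 0.899-fold to 1.46-fold (limma adjusted p = 0.628). The log2 difference of 0.20 was 0.08 without mild 5.

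CALR (calreticulin) is a calcium-binding lectin chaperone that retains glycoproteins until they are folded. It ran from 10.92 through 11.51 to 12.02 in severe cows, against 12.121, 11.5173, 11.9231, 11.9999 and 11.4285 in mild cows. Severe 2 lay below every other cow, severe 5 and severe 6 stood beside the highest mild cows, and 2 severe cows lay below the lowest mild cow. CALR averaged 11.56 ± 0.40 in severe and 11.80 ± 0.31 in mild cows, which differ by -0.24 ± 0.20 on the log2 scale (SE; limma adjusted p = 0.633). Leaving out severe 2 gave -0.11, and leaving out mild 2 and severe 5 gave -0.39.

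PDIA4 (ERp72) is a disulfide isomerase of the ER. It ran from 9.15 through 9.30 to 9.58 in severe cows, against 9.46, 9.61, 9.43, 9.49 and 9.05 in mild cows. The mild mean stood above 5 of the 6 severe values. The means of 9.33 ± 0.14 in severe and 9.41 ± 0.21 in mild cows gave a log2 difference of -0.08 ± 0.11 (SE), and the 95% interval ran from 0.809-fold to 1.11-fold (limma adjusted p = 0.795). The difference was -0.16 without mild 5. The other PDIA4 probe sets had log2 differences of -0.10 ± 0.27 and -0.02 ± 0.11 (SE), the last on a dim signal averaging 4.90. The brighter of them correlated with the main probe set with a Pearson r of 0.36 over the 11 cows (a description).

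HERPUD1 sits in the ER membrane, where it organises the complex that degrades misfolded proteins, and it is induced by several arms of the response. It had the widest spread between cows of the 8 members. It ran from 10.55 through 11.20 to 11.66 in severe cows, against 10.81, 9.82, 11.14, 10.29 and 10.70 in mild cows. Severe 2, severe 5 and severe 6 lay above every mild cow, mild 2 and mild 4 below every severe cow, and the remaining cows overlapped. HERPUD1 averaged 11.16 ± 0.43 in severe and 10.55 ± 0.51 in mild cows, a 1.53-fold difference with a 95% interval from 1.04-fold to 2.25-fold. Its unadjusted p was 0.0340 and its limma adjusted p 0.359. Of all genes, 11.7% had a smaller p. Leaving out mild 2 and severe 5 brought its log2 difference to 0.35.

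ATF4 is the transcription factor of the PERK arm and is controlled largely at translation, which an array does not see. It ran from 10.94 through 11.02 to 11.32 in severe cows, against 10.74, 10.58, 11.05, 10.90 and 10.51 in mild cows. Mild 3 alone lay within the severe range, and 4 of 5 mild cows lay below the lowest severe cow. ATF4 averaged 11.08 ± 0.14 in severe and 10.76 ± 0.22 in mild cows, which differ by 0.32 ± 0.11 on the log2 scale (SE), or 1.25-fold with a 95% interval from 1.06-fold to 1.48-fold. Its unadjusted p of 0.0124 became an adjusted p of 0.310 by limma. Over the alternatives tried, the difference ran from 0.23 with array weights to 0.40 without mild 3.

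DDIT3 (CHOP), a target of ATF4, is a transcription factor that favours cell death under lasting stress. It ran from 7.59 through 7.76 to 8.04 in severe cows, against 7.45, 6.92, 7.61, 7.30 and 8.07 in mild cows. Mild 5 was the highest of all cows and mild 2 the lowest, so the mild group enclosed the severe group. DDIT3 averaged 7.81 ± 0.16 in severe and 7.47 ± 0.42 in mild cows, which differ by 0.33 ± 0.17 on the log2 scale (SE; limma adjusted p = 0.439). The difference was 0.48 without mild 5 and 0.20 without mild 2.

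TRIB3 is a pseudokinase induced by ATF4 and DDIT3 that restrains AKT signalling and feeds back on ATF4. It ran from 4.89 through 5.19 to 5.47 in severe cows, against 5.02, 4.70, 5.01, 4.81 and 4.63 in mild cows, and all severe cows but severe 1 exceeded every mild cow. All 11 cows were below 5.52, below which the dimmest 40% of all probe sets fall and differences are compressed, so no fold is given. TRIB3 averaged 5.18 ± 0.21 in severe and 4.84 ± 0.18 in mild cows, which differ by 0.35 ± 0.12 on the log2 scale (SE). It had the smallest p of the members, 0.0114, with a limma adjusted p of 0.308, and 4.52% of all genes had a smaller p. Groups did not overlap in 0 of 8 members, where 0.754% of all genes lay wholly higher and 0.437% wholly lower in severe cows.

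**Figure D2:**
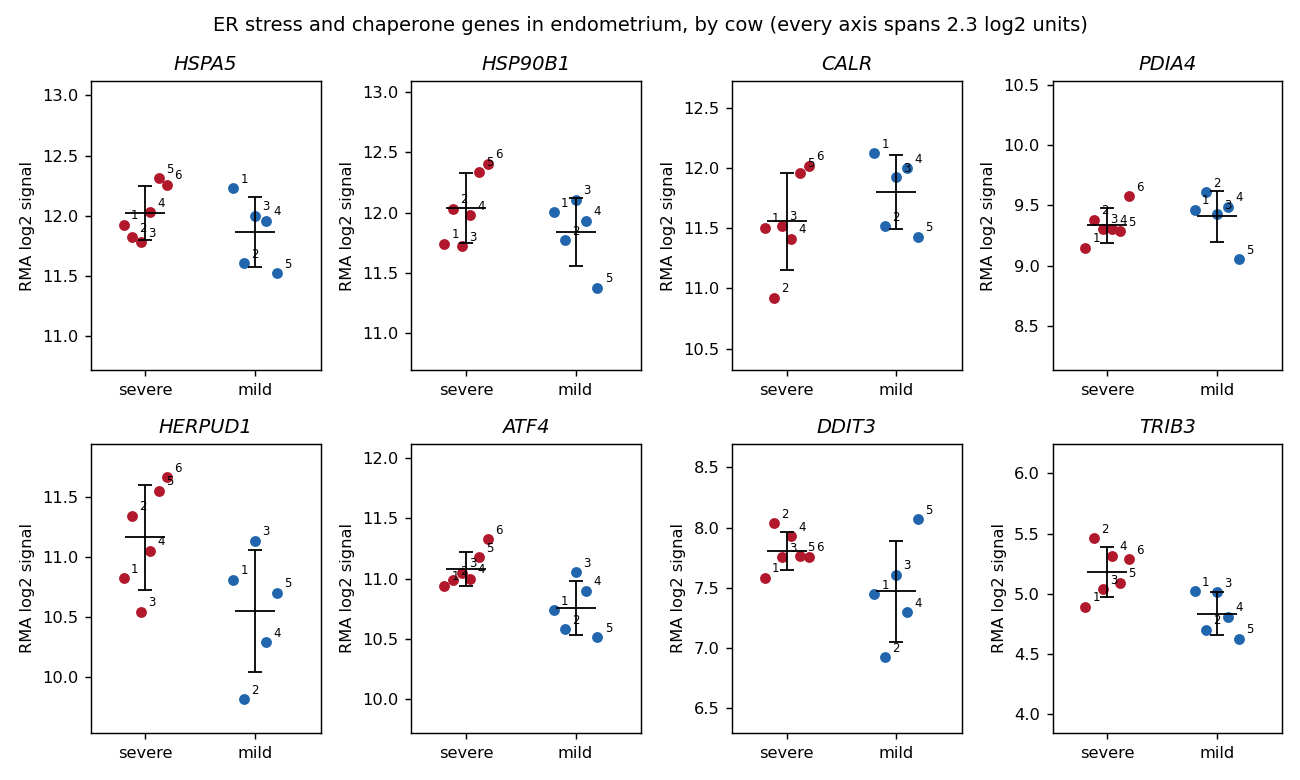
RMA log2 signal (y axis) of the 8 members in each cow, severe (red, n = 6) left of mild (blue, n = 5), with the mean and SD in black and the cow's number beside its point. In ATF4 and TRIB3 most severe cows lie above most mild cows, while in HSPA5, HSP90B1, CALR and PDIA4 the groups overlap widely.

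Single cows stood out in several members at once. By main probe sets, mild 5 had the lowest value of HSPA5, HSP90B1, ATF4, PDIA4 and TRIB3 and the highest of DDIT3. Mild 2 had the lowest value of HERPUD1 and DDIT3 and the highest of PDIA4. On the second brightest PDIA4 probe set severe 5 was highest (9.62) and severe 2 lowest (8.01), with mild 2 at 8.70 and mild 5 at 8.30. Severe 6 had the highest value of HSP90B1, ATF4 and HERPUD1. The median deviation of the members from their own means was 0.33 in severe 6 and 0.27 in severe 5, and -0.33 in mild 2 and -0.35 in mild 5. The other 7 cows lay between -0.10 and 0.09. Severe 2 combined the highest TRIB3 with the lowest CALR.

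**Figure D3:**
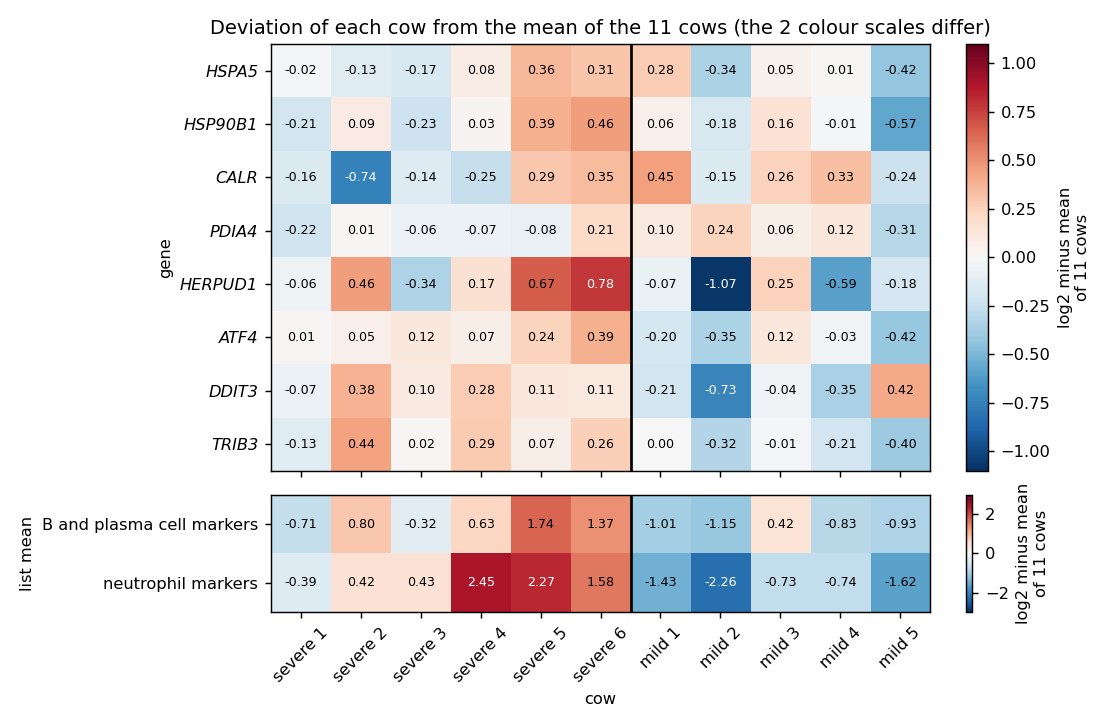
Deviation of each cow (columns, severe left of mild) from the mean of the 11 cows on the log2 scale, for the 8 members and for the mean of 2 marker lists, with separate colour scales. Severe 5 and severe 6 are high and mild 2 and mild 5 low in most rows, and the marker lists are highest in severe cows.

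The relation of HSPA5 to each of the other 7 members was computed over the 11 cows, with permutation p-values from 100000 resamples adjusted over these 7 relations. HSPA5 and HSP90B1 were most closely related, with a Pearson r of 0.86 (permutation p = 0.00068, adjusted p = 0.00476) and a Spearman rho of 0.82 (permutation p = 0.0034, adjusted p = 0.0238). Without mild 2 and mild 5, the cows farthest from the median of HSPA5, r was 0.78. Within the 6 severe cows it was 0.87 (exact permutation p = 0.0361, adjusted p = 0.143). CALR had a Pearson r of 0.66 with HSPA5 (permutation p = 0.0287, adjusted p = 0.0502) and a rho of 0.59 (permutation p = 0.0619, adjusted p = 0.108). Its r was 0.71 without those mild cows and 0.82 within severe cows (exact permutation p = 0.0556, adjusted p = 0.143). After each cow's group mean was removed, r was 0.84 for HSP90B1 (permutation adjusted p = 0.00553) and 0.86 for CALR (permutation adjusted p = 0.00553).

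ATF4 had an r of 0.70 (permutation p = 0.0162, adjusted p = 0.0502) and a rho of 0.65 (permutation p = 0.0333, adjusted p = 0.0777). Over all cows, the r of ATF4 was 0.28 without mild 2 and mild 5, and within the 6 severe cows it was 0.77 (exact permutation p = 0.0806, adjusted p = 0.143). HERPUD1 had an r of 0.66 (permutation p = 0.0281, adjusted p = 0.0502) and a rho of 0.67 (permutation p = 0.0276, adjusted p = 0.0777), with an r of 0.53 without those cows and 0.78 within severe cows (exact permutation p = 0.0819, adjusted p = 0.143). After each cow's group mean was removed, r was 0.71 for ATF4 (permutation adjusted p = 0.0402) and 0.61 for HERPUD1 (permutation adjusted p = 0.0838). TRIB3 had an r of 0.52 (permutation p = 0.101, adjusted p = 0.142) and a rho of 0.54 (permutation p = 0.0937, adjusted p = 0.131), and r was 0.02 without mild 2 and mild 5. PDIA4, by its main probe set, had an r of 0.28 (permutation p = 0.399, adjusted p = 0.466) and a rho of 0.15 (permutation p = 0.674, adjusted p = 0.786). The second brightest PDIA4 probe set followed the main one with an r of only 0.36, and its relation to HSPA5 was not computed. The values for PDIA4 therefore hold for 1 probe set. DDIT3 had an r of 0.05 (permutation p = 0.893, adjusted p = 0.893) and a rho of -0.00909 (permutation p = 0.989, adjusted p = 0.989).

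**Figure D4:**
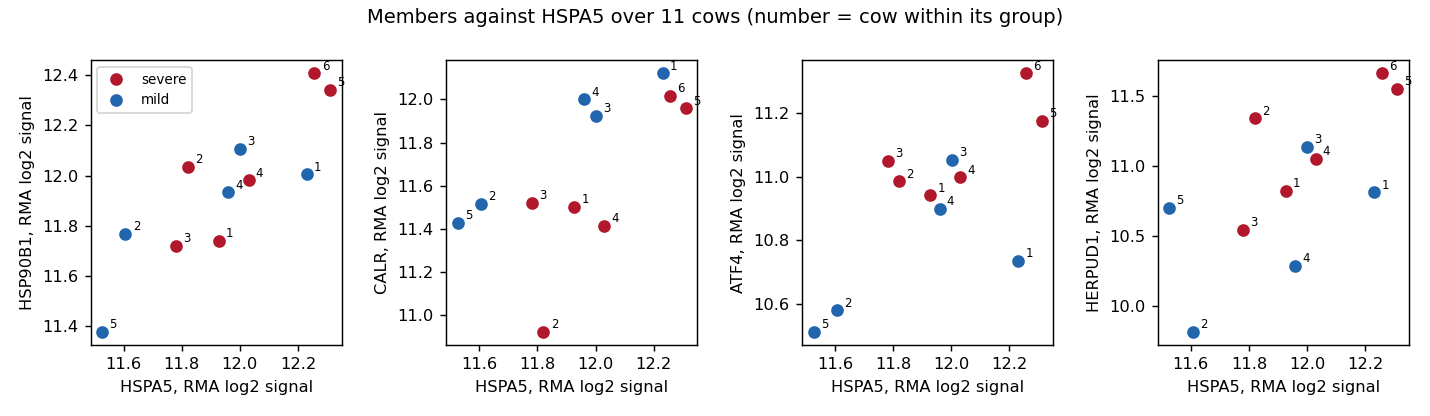
RMA log2 signal of HSP90B1, CALR, ATF4 and HERPUD1 (y axes) against HSPA5 (x axes) in severe (red) and mild (blue) cows, numbered within their group. HSP90B1 follows HSPA5 in both groups, and the low end of the ATF4 relation is formed by mild 2 and mild 5.

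Among 7133 genes that were not dim on average, the 5 whose values were most like those of HSPA5 over the 11 cows had Pearson r between 0.93 and 0.94. They were CD6, a T cell surface receptor, AMELX, an enamel protein in teeth, MANF, a secreted ER stress-inducible factor, UNC13D, a protein of granule release, and CDHR5, a cadherin of microvilli. None of these 5 had a log2 difference over 0.16 in size, and MANF averaged 10.84 ± 0.35 in severe and 10.71 ± 0.25 in mild cows (SD, n = 6 and 5). Of the members, HSP90B1 ranked 27 of the 7133, ATF4 305, HERPUD1 421, CALR 427, PDIA4 2292 and DDIT3 3707. TRIB3 was dim and not ranked.

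Other genes of the pathway were taken from 6 lists and are described by their counts. No gene of these lists passed the limma threshold. Over all 24016 probe sets the smallest adjusted p was 0.177, 0 were under 0.05, and 3085 (12.8%) had an unadjusted p under 0.05. By gene, 8.45% were higher and 7.46% lower in severe cows at that unadjusted threshold. Of 12 stress sensors and processing enzymes listed, ERN1, EIF2AK4 and CREB3L1 had no probe set under those symbols and were not read. Of the 9 measured, 5 were higher and 4 lower in severe cows, and 0 had an unadjusted p under 0.05. Their log2 differences ran from -0.07 to 0.19 with a median of 0.00679. EIF2AK3, the PERK kinase, averaged 7.86 ± 0.14 in severe and 7.93 ± 0.20 in mild cows. CREB3L2, an ER-anchored factor of the ATF6 type active in secretory cells, had a log2 difference of 0.19 ± 0.15 (SE) and its relative CREB3 one of 0.06 ± 0.08.

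Of 18 lumenal chaperones and lectins measured, 8 were higher and 10 lower, and the median difference was -0.08. At an unadjusted p under 0.05 there were 6 lower and 1 higher, against 7.46% and 8.45% of all genes. DNAJC10, an ER co-chaperone and reductase, averaged 9.23 ± 0.10 in severe and 9.80 ± 0.41 in mild cows, which differ by -0.57 ± 0.16 on the log2 scale (SE; limma adjusted p = 0.290). Its other probe sets were at -0.60 ± 0.19 and -0.22 ± 0.08 (SE). FKBP14 and FKBP9, prolyl isomerases of the ER, had log2 differences of -0.51 ± 0.13 and -0.30 ± 0.12 (SE, limma adjusted p = 0.285 and 0.340). CANX, the membrane-bound partner of CALR, differed by -0.13 ± 0.12 and HYOU1, the exchange factor of HSPA5, by -0.15 ± 0.17 (SE). The 1 higher gene was DNAJB9, a co-chaperone of HSPA5 induced through XBP1, at 9.79 ± 0.31 in severe and 9.41 ± 0.28 in mild cows (limma adjusted p = 0.369), named after its value was seen.

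Disulfide isomerases and oxidases had 7 of 12 measured members higher and 5 lower, with a median difference of 0.04. There were 2 higher and 0 lower at an unadjusted p under 0.05, against 8.45% and 7.46% of all genes. QSOX1, a sulfhydryl oxidase of the secretory route, averaged 10.99 ± 0.39 in severe and 10.34 ± 0.38 in mild cows, a 1.58-fold difference (limma adjusted p = 0.307). Its highest mild value was exceeded by 4 severe cows. ERO1A, which recharges disulfide isomerases, had a log2 difference of 0.34 ± 0.12 (SE), but all cows were dim and its other probe set was at -0.07. TXNDC11, a thioredoxin-like protein of the ER, differed by 0.25 ± 0.14 (SE). PDIA3, the isomerase that works with CALR and CANX, differed by 0.09 ± 0.13 and P4HB, the founding isomerase of the family, by -0.10 ± 0.09 (SE).

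The list nearest to HERPUD1 in function, ER-associated degradation, had 11 of 17 measured members higher and 6 lower, with a median difference of 0.17. At an unadjusted p under 0.05 there were 5 higher and 0 lower, against 8.45% and 7.46% of all genes. EDEM2, which trims mannose from misfolded glycoproteins, averaged 8.70 ± 0.22 in severe and 8.28 ± 0.19 in mild cows, a 1.34-fold difference (limma adjusted p = 0.294). HERPUD2, the paralogue of HERPUD1, and SEL1L, the scaffold of the HRD1 ubiquitin ligase, differed by 0.29 ± 0.10 each on the log2 scale (SE; limma adjusted p = 0.317 and 0.319). For these 3 genes the mild mean was exceeded by 6 of 6 severe cows. DERL1, a channel component, differed by -0.02 ± 0.11 (SE).

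The translocon and signal peptide list had 7 of 20 measured members higher and 13 lower, with a median difference of -0.05. At an unadjusted p under 0.05 there were 1 higher and 1 lower, against 8.45% and 7.46% of all genes. SPCS3, a signal peptidase subunit, had a log2 difference of 0.94 ± 0.43 (SE), and its other probe sets were at 0.42 ± 0.27 and, dim, at 0.03 ± 0.07. SEC63, which couples HSPA5 to the translocon, differed by -0.17 ± 0.07 and SSR1, a subunit of the translocon-associated protein complex, by -0.17 ± 0.09 (SE). The other SEC63 probe sets were at -0.26 ± 0.14 and 0.01 ± 0.06 (SE). A second bright SSR1 probe set was at -0.34 ± 0.11 and a dim one at -0.05 ± 0.08 (SE). SEC61A1 and SEC61B, subunits of the channel, differed by -0.05 ± 0.15 and -0.11 ± 0.12 (SE).

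Known targets of ATF4 or DDIT3 had the widest range of the 6 lists, from -1.41 to 1.49. Of 24 measured, 14 were higher and 10 lower, and the median difference was 0.08. At an unadjusted p under 0.05 there were 5 higher and 1 lower, against 8.45% and 7.46% of all genes. ATF3, a stress-induced factor that many other signals also raise, averaged 8.00 ± 0.61 in severe and 6.51 ± 0.48 in mild cows, a 2.81-fold difference (limma adjusted p = 0.248). CEBPD, an acute phase factor, averaged 11.29 ± 0.65 in severe and 10.04 ± 0.81 in mild cows, which differ by 1.25 ± 0.39 on the log2 scale (SE; limma adjusted p = 0.307). Leaving out mild 2 and severe 5 gave 0.73. PSAT1, an enzyme of serine synthesis that ATF4 is known to raise, averaged 8.98 ± 0.98 in severe and 10.38 ± 0.67 in mild cows, which differ by -1.41 ± 0.46 on the log2 scale (SE; limma adjusted p = 0.308). Its other probe sets were at -1.39 and -1.56. CHAC1, a glutathione-degrading enzyme regarded as a sensitive ATF4 target, differed by 0.09 ± 0.11 (SE) at a signal near the dim limit.

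**Figure D5:**
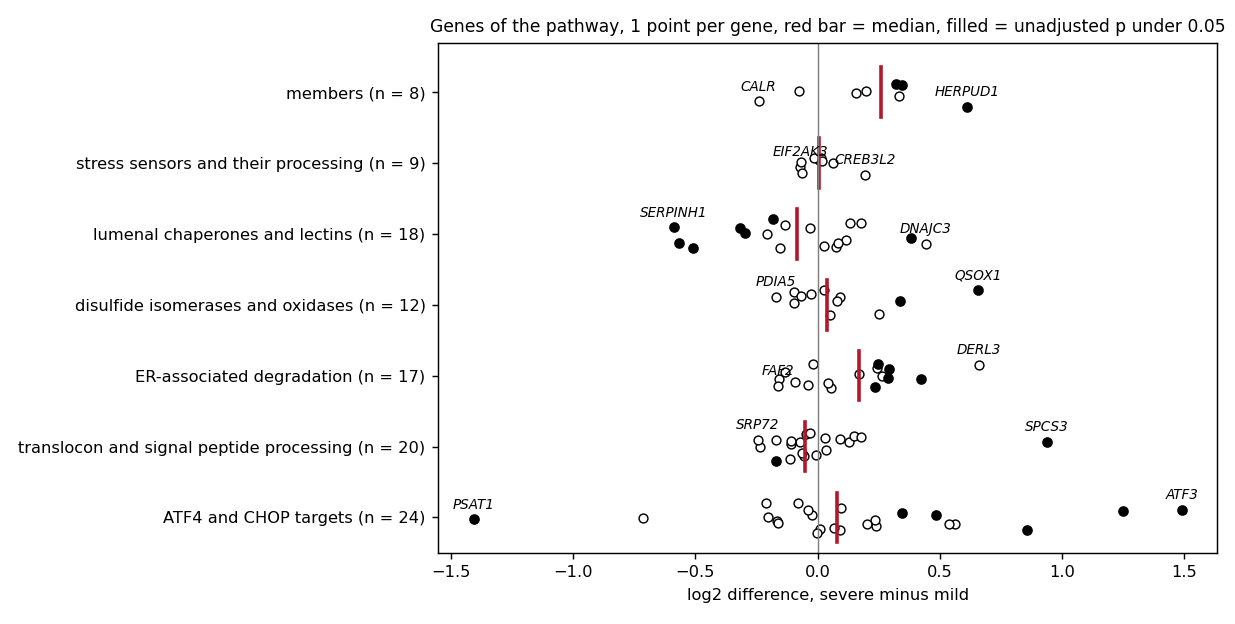
Log2 difference of severe minus mild cows (x axis) for every measured gene of the members and of 6 pathway lists, 1 point per gene, with the median as a red bar and filled points for an unadjusted p under 0.05. The medians lie at 0.26 for the members, 0.17 for ER-associated degradation and between -0.08 and 0.08 for the others.

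Markers of immune cells moved with the groups and with single cows. B and plasma cells were considered because plasma cells carry a large ER. All 9 measured of 14 B and plasma cell markers were higher in severe cows, 8 of them at an unadjusted p under 0.05, against 8.45% of all genes. POU2AF1, CD79A, MS4A1 and CD38 were dim on average. The mean level of the 9 markers ran from 6.64 to 9.08 in severe and from 6.20 to 7.77 in mild cows. It was highest in severe 5 (9.08) and severe 6 (8.71), the cows with the highest HSPA5 and HERPUD1. Severe 2 came next at 8.15, with its HSPA5 at 11.82. Among mild cows the level was highest in mild 3 (7.77), which had the highest HERPUD1 of its group, while mild 1, with the highest HSPA5 of its group, was at 6.33. JCHAIN, which links antibody polymers, averaged 11.24 ± 0.92 in severe cows, against 9.44 ± 1.26 in mild cows, and CD38 was dim in 5 of 6 severe and 5 of 5 mild cows. The mean level of the endothelial markers was also highest in severe 6 (7.76) and severe 5 (7.70). That of the neutrophil and macrophage markers was highest in severe 4 (9.95 and 10.41), and that of the T and NK cell markers in severe 2 (7.06). The part of B and plasma cells, or of any other cell type, in the values of the 8 members was not tested.

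All 7 measured of 12 neutrophil markers were higher too, and their mean level ran from 7.11 to 9.95 in severe and from 5.24 to 6.77 in mild cows without overlap. TREM1 was dim on average, and CXCR1, TREM1 and IL1R2 were dim in all 5 mild cows. S100A8, abundant in neutrophil cytosol, averaged 11.39 ± 1.18 in severe cows, against 8.15 ± 1.31 in mild cows, and CXCR1, a chemokine receptor, averaged 7.37 ± 1.00 in severe cows, against 4.70 ± 0.61 in mild cows, where it was dim in all 5, so no difference is given. All 8 measured macrophage markers and all 13 T and NK cell markers were higher in severe cows as well. At an unadjusted p under 0.05 there were 4 and 9 of them, where 8.45% of all genes were called in that direction. The mean level of the macrophage markers ran from 8.26 to 10.41 in severe and from 7.87 to 9.29 in mild cows. That of the T and NK cell markers ran from 5.95 to 7.06 and from 5.47 to 6.22, with CD4, GZMB and NCR1 dim on average. Epithelial markers, 12 in number, had a median difference of -0.02 and ran from 7.13 to 8.48 in severe and from 7.71 to 8.48 in mild cows, with severe 5 the lowest. Median differences were 0.08 for 9 stromal, 0.20 for 7 endothelial and -0.28 for 6 smooth muscle markers. The part of immune cells in the values of ATF3, CEBPD and QSOX1 was not tested.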

How the data were processed

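Trizol was used to extract the RNA, which carried a biotin label, per the labels' protocols. The deposited values are log2 signals that the authors made with RMA, per the submitters' processing notes, a method that quantile-normalizes arrays and so hides any shift shared by all transcripts. That they are log2 follows from their range of 2.63 to 14.6. No version or filter is stated in the sources used here. An array has no read depth, so the number of arrays limits the precision.

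Of 24128 probe sets, 112 controls were left out. Of the other 24016, 13292 had 1 symbol in the platform annotation, 86 several and 10638 were not listed. Symbols were checked through Entrez numbers against a RefSeq table of the assembly ARS-UCD2.0, which matched 13263 and renamed 0. Severe was compared with mild with limma 3.58.1 in R 4.3.3 (lmFit, eBayes, two-sided) on all 24016, with Benjamini-Hochberg adjustment over all and a threshold of 0.05. Background shares are over the 9155 genes by their main probe set. Scripts used Python 3.11.15 with scipy 1.17.1 and matplotlib 3.10.9, and the procedure was tested on simulated data.

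The members and lists were chosen with earlier results of these data known. Named outside the members were, in each of 6 pathway lists, the 3 genes with the smallest p and up to 2 set by role, and the 2 with the smallest p in the B and plasma cell and the neutrophil list. The other 6 marker lists are given as whole lists, by level, count, median difference or range of differences. DNAJB9, EPCAM and DCN fall outside this rule and were picked after their values were seen. A main probe set per gene was used, and of 12 such genes with several probe sets 4 had another of opposite sign (CANX, HYOU1, ERO1A and SEC63), 0 of those at an unadjusted p under 0.05. Alternatives were a filter on the dimmest 40%, a second quantile normalization, array weights, trended and robust eBayes, a shift to a common median, each cow left out, mild 2 and severe 5 left out, 1 probe set per gene tested, the mean over probe sets and a threshold of 0.10. The cows were blocked before allocation, but no block, batch or scan date of a cow is given here. Replicate numbers only name the cows.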

Additional observations from a re-analysis of the deposited data

Results flagged for a closer look

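In 76 groups of values (38 named genes in severe and in mild cows) 3 had a cow set apart from its group by a gap beyond the 95% critical value of Dixon's ratio, a rate that chance gives in about 1 of 20 groups. None was a member. HERPUD2 was at 9.84 in severe 2, with the next severe cow at 9.45, and its log2 difference was 0.22 without that cow. SEC61B was at 10.56 in mild 5, the next mild cow being at 10.92. SSR1 was at 11.30 in severe 6, the next severe cow being at 11.09.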

How the results depend on the processing

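No member reached an adjusted p under 0.05 in limma under any alternative, and 0 did under 0.10. All 151 differences of the 8 members under the alternatives kept their sign and their side of the threshold. The median member difference ran from 0.16 without mild 2 and severe 5 to 0.32 without mild 3. The number of members at an unadjusted p under 0.05 was 1 with array weights and 1 without mild 2 and severe 5, TRIB3 in both. It was 2 when the dimmest 40% of probe sets were left out, a filter that removed TRIB3 itself. With each cow left out the number ran from 2 to 4. HERPUD1 dropped out of that count without mild 2, mild 4, severe 2, severe 5 or severe 6, and DDIT3 entered it without mild 5. Over all probe sets the count at an adjusted p under 0.05 ran from 0 to 16 with each cow left out, being 16 without severe 1 and 2 without severe 3. With the mean over its probe sets HSPA5 differed by 0.02. Of the 30 other named genes, PDIA3, DERL1 and SEC61A1 turned sign under some alternatives. PDIA3 was at -0.00316 after a second quantile normalization and ran from -0.00431 to 0.15 with each cow left out, DERL1 ran from -0.0783 to 0.0642 and SEC61A1 from -0.157 to 0.0267. CXCR1 alone of 30 passed in one setting, without severe 1 (limma adjusted p = 0.0466, against up to 0.479 in other settings). With group means removed, the correlation with HSPA5 was -0.15 for DDIT3, 0.71 for ATF4 (permutation adjusted p = 0.0402) and 0.86 for CALR (permutation adjusted p = 0.00553). The causes of these changes were not tested. TRIB3 and ERO1A were dim in all cows, which compresses their differences. No paired analysis was possible because the labels give no replicate numbers and no block for each cow.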

Other observations

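Further genes of the lumenal list, named after their values were seen, had an unadjusted p under 0.05, and none passed the limma threshold. SERPINH1 (HSP47), a collagen-specific chaperone, averaged 10.95 ± 0.50 in severe and 11.54 ± 0.31 in mild cows, which differ by -0.59 ± 0.23 on the log2 scale (SE; limma adjusted p = 0.341). FKBP10, a prolyl isomerase, averaged 8.52 ± 0.21 in severe and 8.84 ± 0.25 in mild cows (limma adjusted p = 0.358). SIL1, an exchange factor of HSPA5, differed by -0.18 ± 0.07 (SE). PPIB and P4HB, which like SERPINH1 and FKBP10 act on procollagen, differed by -0.03 ± 0.10 and -0.10 ± 0.09 (SE, limma adjusted p = 0.916 and 0.673).

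Other ATF4 or DDIT3 targets were also named after their values were seen. PHGDH, an enzyme of serine synthesis, averaged 7.90 ± 0.66 in severe and 8.61 ± 0.65 in mild cows, which differ by -0.71 ± 0.35 on the log2 scale (SE; unadjusted p = 0.0668, limma adjusted p = 0.426). SHMT2 and MTHFD2, mitochondrial one-carbon enzymes of the same list, differed by 0.07 ± 0.22 and -0.04 ± 0.26 (SE). NUPR1, a stress-induced nuclear protein, differed by 0.49 ± 0.17 and VLDLR, a lipoprotein receptor, by 0.86 ± 0.30 (SE, limma adjusted p = 0.317 and 0.319). DERL3, an ER-associated degradation gene, averaged 7.42 ± 0.81 in severe and 6.75 ± 0.76 in mild cows (limma adjusted p = 0.530).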
